A study of Mus musculus with 10 samples.

Results

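The small intestine and the distal colon were compared in 4 arrays of a series of 10. The series measured jejunum, ileum, distal colon, liver and spleen at 2 ages, with 1 array for each tissue and age. The comparison took both arrays labelled jejunum against both arrays labelled distal colon, used the 4-month and the 28-month array of a tissue as its replicates, and kept a difference only where it had the same sign at both ages. All groups were untreated male mice of the outbred ICR stock, caged singly under specific-pathogen-free conditions and fed the AIN-93 diet. The mice killed at 4 months had been bought at 2 months of age, and those killed at 28 months at 8 months. Each array held equal amounts of RNA from 6 mice at 4 months or 9 mice at 28 months, pooled within a tissue, and the tissues of an age came from the same mice. The spread between the replicates of a tissue therefore holds age, the pool and the array together, and no value per animal was analysed. No position along the intestine is given in the sources used here, and pieces of whole tissue hold the epithelium, the muscle wall and immune cells together.

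Digested food is taken up mainly in the jejunum. Enterocytes there carry disaccharidases and peptidases on their brush border, move sugars, amino acids and minerals through transporters, and pack fat into chylomicrons. Paneth cells at the base of the crypts secrete antimicrobial proteins. The distal colon has no villi and normally no Paneth cells, takes up salt and water under the control of aldosterone, absorbs short-chain fatty acids made by bacteria, and is covered with mucus from goblet cells. Along the gut, posterior Hox genes and endoderm transcription factors such as Gata4, Pdx1 and Cdx2 are known to mark position.

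The arrays met their labels in the genes that mark each segment, with 1 exception in the jejunum. Hoxb13, a Hox gene of the hindgut, read 6355 units at 4 months and 8492 units at 28 months in distal colon, and 42 and 35 units in jejunum. Fabp6, the ileal bile acid binding protein, read 20178 and 35830 units in ileum, 46 and 52 units in jejunum and 272 and 429 units in distal colon. Albumin (Alb) lay at 97 to 175 units on the 4 arrays. The exception was that both arrays labelled jejunum carried genes known from stomach surface and antral glands, from the Brunner's glands of the duodenum and from the exocrine pancreas. These genes are given apart from the epithelial genes below, and "jejunum" stands throughout for the arrays labelled so.

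Signals are in units on which the trimmed mean of every array is 500. A gene counted as measured above 111 units, the median of all signals and called the floor here, and lower signals were set to it before a fold was taken. Where the dimmer tissue lay below the floor on 1 or both arrays, the fold is a lower bound and is written as at least. Of 12449 genes tested, 770 were higher in jejunum, which is 6.19% of the genes tested, and 1147 were higher in distal colon, or 9.21%. Counts for the gene lists below are to be read beside these shares. A gene was called at a 2-fold difference, the same sign at both ages and an adjusted p under 0.05 in limma with Benjamini-Hochberg adjustment, and adjusted p-values below are from that fit. Arrays of the same tissue correlated at 0.991 to 0.992 over genes and arrays of different tissues at 0.937 to 0.947, and the median SD between the ages was 0.12 in jejunum and 0.11 in distal colon on the log2 scale. With 2 arrays against 2, an exact two-sided permutation test of a single gene cannot give a p below 0.333. Nothing says that the pools of the 2 ages stand for separate replicates of a tissue beyond their age, so the p-values measure the spread between these pools.

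More genes were higher in distal colon, but the larger differences were in jejunum. The median fold of the called genes was 3.16 for jejunum and 2.71 for distal colon. At least 16-fold differences were found for 92 genes higher in jejunum and 29 higher in distal colon, and at least 64-fold differences for 33 and 6. The 33 include stomach and pancreatic genes that are given apart below, such as Gkn3, Tff2, Gkn2 and Cela2a. Counts at these higher folds were not made without such genes. From 4-fold upwards the balance turned, with 308 genes higher in jejunum and 244 higher in distal colon. Of the 12449 genes tested, 11168 lay above the floor on all 4 arrays, 354 only on both jejunum arrays and 433 only on both distal colon arrays. The floor is a median and no detection call, and tested genes had passed it in a tissue, so these counts depend on both choices. The median difference of all genes tested, jejunum minus distal colon, was -0.08 on the log2 scale.

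**Figure D1:**
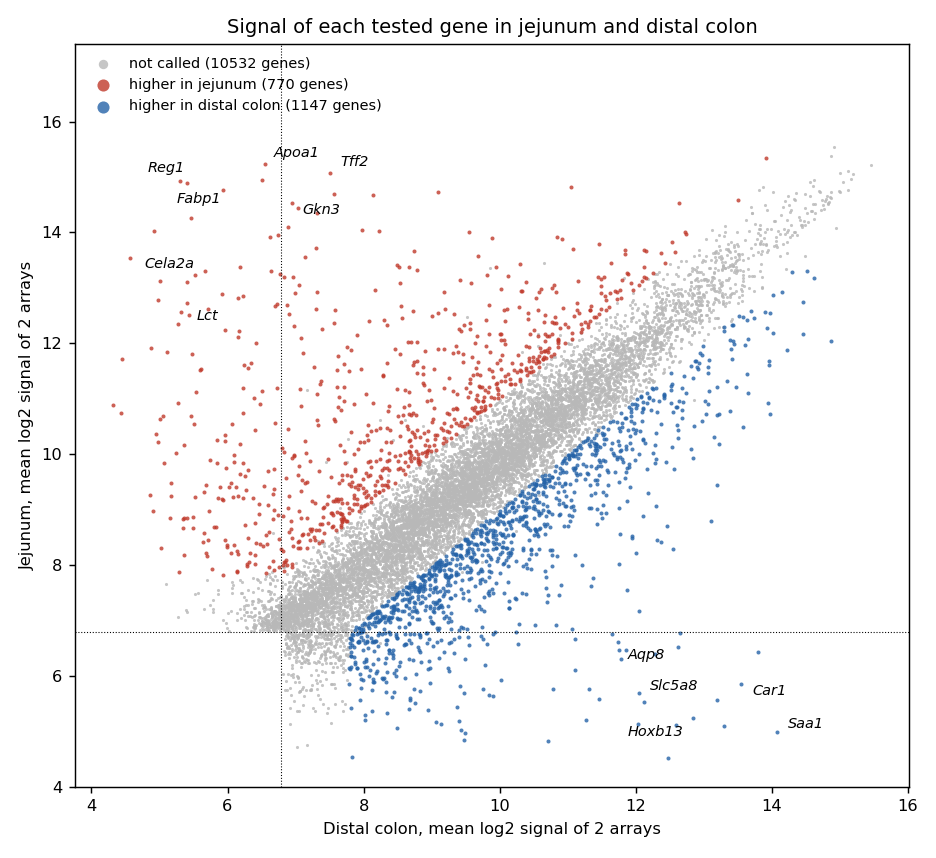
Each point is 1 of the genes tested, placed by its mean log2 signal on the 2 distal colon arrays (x axis) and the 2 jejunum arrays (y axis); red points were higher in jejunum (770), blue points higher in distal colon (1147), grey points were not called, and dotted lines mark the floor. The red points reach farther from the diagonal than the blue ones, and the far red points include stomach and pancreatic genes such as Gkn3, Tff2 and Cela2a.

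Among the genes named by the rule, Apoa1 and Fabp1 had the largest differences towards jejunum, followed by the lectin gene Reg1, Prap1 and Apoa4. Apoa1, the main protein of high-density lipoprotein, read 44659 units at 4 months and 33290 units at 28 months in jejunum, and 86 and 102 units in distal colon, at least 348-fold apart with an adjusted p of 4.6e-06. Fabp1, the liver-type fatty acid binding protein, read 33770 and 28777 units against 40 and 39 units, at least 282-fold. Apoa4 and Apoc3, proteins of chylomicrons, were at least 253-fold and 177-fold higher. In each of these genes both jejunum arrays lay far above both distal colon arrays. Prap1, a secreted acidic protein of the gut epithelium, was at least 260-fold higher, Lgals2, which encodes galectin-2, 140-fold, and Cyp3a11, the main drug-metabolising cytochrome of mouse gut and liver, at least 150-fold.

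Of 22 fat absorption and lipoprotein genes tested, 20 were higher in jejunum and 2 were not called. Their median difference was 3.84 on the log2 scale, against -0.08 for all genes tested. In bulk tissue, fewer cells of a type and less RNA per cell cannot be told apart. Mttp, the transfer protein that loads lipid onto apolipoprotein B, read 10949 and 8666 units in jejunum and 109 and 108 units in distal colon, at least 88-fold. Mogat2 and Dgat1, which rebuild triglyceride in the enterocyte, were higher by at least 60.6-fold for Mogat2 and by 10.7-fold for Dgat1, which read above the floor in distal colon. Npc1l1, the cholesterol importer that ezetimibe blocks, was at least 32.3-fold higher, and Abcg5 and Abcg8, which pump sterols back into the lumen, were 7.25-fold and 4.88-fold higher. Fabp2, the intestinal fatty acid binding protein, read 34442 and 24259 units in jejunum and 4246 and 1049 units in distal colon, so its difference was smaller and more uneven than that of Fabp1. The remaining pair were Plin2, of lipid droplets, at 3586 and 3203 units against 3602 and 4077 units, and Abca1, which exports cholesterol to the blood side, at 2493 and 1131 units against 3818 and 2424 units.

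All 7 sugar digestion and uptake genes tested were higher in jejunum, with a median difference of 4.15. Slc2a2, the glucose carrier of the basal membrane, read 9561 and 8407 units in jejunum and 30 and 35 units in distal colon, at least 81-fold apart with an adjusted p of 3.4e-06. Lactase (Lct) read 12629 units at 4 months and 3600 units at 28 months in jejunum and stayed below the floor in distal colon, at least 60.9-fold. Trehalase (Treh) was at least 33.1-fold higher, the fructose carrier Slc2a5 17.8-fold and ketohexokinase (Khk), the first enzyme of fructose breakdown, 11-fold. Slc5a1, which takes up glucose with sodium, read 17176 and 13249 units against 1930 and 1944 units, 7.79-fold, so distal colon kept a level above the floor. Maltase-glucoamylase (Mgam) did the same, with 16524 and 14462 units against 1918 and 1770 units.

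Peptide and amino acid genes were less uniform. Of 20 tested, 14 were higher in jejunum and 1 was higher in distal colon, with a median difference of 2.52. Slc6a19, the main carrier of neutral amino acids, was at least 43.9-fold higher in jejunum, neprilysin (Mme) 40-fold and the cystine and dibasic amino acid carrier Slc7a9 17.3-fold. Aminopeptidase N (Anpep) read 3265 and 1131 units in jejunum, 86 and 92 units in distal colon and 6938 and 7707 units in ileum. The proton-coupled peptide carrier Slc15a1 read 1504 and 702 units against 731 and 574 units and was not called (adjusted p = 0.18 in limma). Meprin alpha (Mep1a) went the other way from meprin beta (Mep1b): Mep1a read 949 and 433 units in jejunum and 3518 and 2438 units in distal colon, 4.57-fold higher there, while Mep1b was 4.74-fold higher in jejunum.

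Of 16 vitamin and mineral genes tested, 11 were higher in jejunum and 5 were not called, with a median difference of 2.56. Rbp2, which binds retinol inside enterocytes, was at least 57.1-fold higher. Cybrd1, the duodenal ferric reductase, read 5141 and 6789 units in jejunum, 152 and 95 units in distal colon and 96 and 117 units in ileum. S100g, the calcium binding protein calbindin-D9k, read 12234 and 9772 units in jejunum, 332 and 388 units in distal colon and 253 and 323 units in ileum. Both genes were thus high in jejunum and low in ileum as in colon, and the iron importer Slc11a2 (1086 and 2233 units in jejunum, 292 and 300 units in ileum) and the manganese exporter Slc30a10 (888 and 841 units, 145 and 186 units) had the same order. The folate and heme carrier Slc46a1 was 8.27-fold higher in jejunum than in distal colon. The iron exporter Slc40a1 was not called, at 9416 and 10048 units against 7893 and 6437 units.

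**Figure D2:**
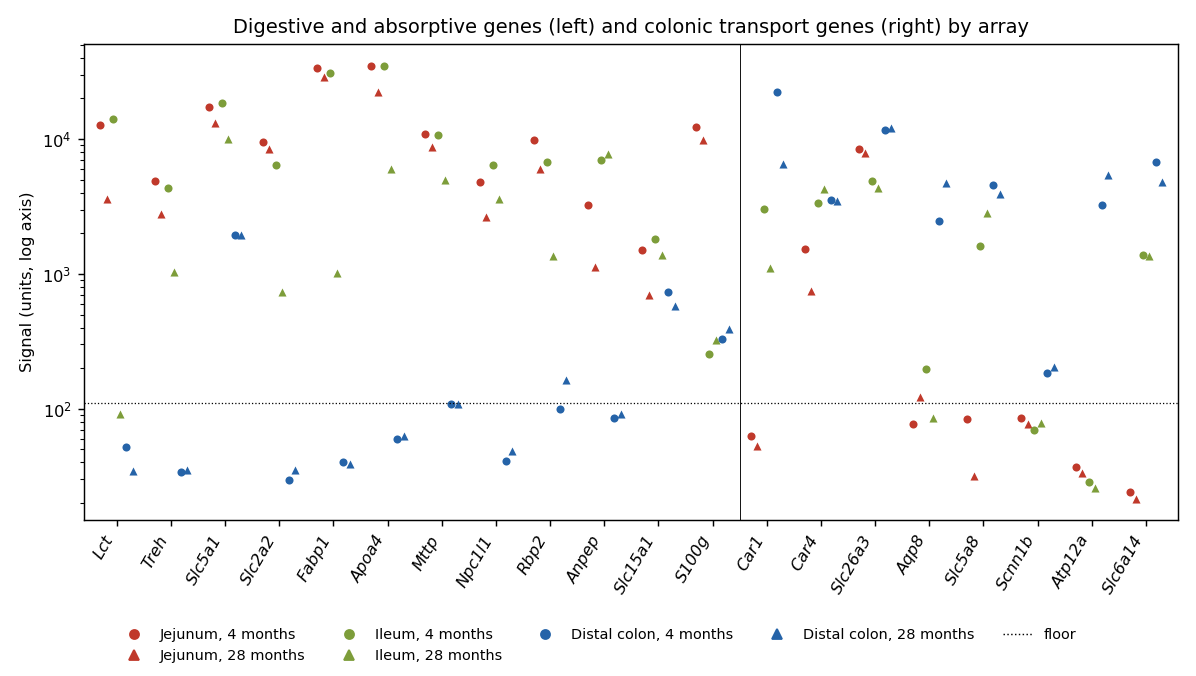
Signal in units on a log axis for 12 digestive and absorptive genes (left of the line) and 8 transport genes of the colon list (right), with 1 point per array; red is jejunum, green ileum and blue distal colon, circles are 4 months, triangles 28 months, and the dotted line is the floor. Slc5a1 and Slc15a1 remain above the floor in distal colon, while Slc2a2 and Fabp1 lie below it, and Lct and Fabp1 are far lower in ileum at 28 months than at 4 months.

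Enzymes that alter drugs and foreign compounds were higher in jejunum in 17 of 31 genes tested, with 1 higher in distal colon and a median difference of 2.20. Cyp3a11 read 17913 and 15393 units in jejunum and 30 units on both distal colon arrays, and Cyp3a25 was at least 79.2-fold higher. The glucuronosyltransferase Ugt2a3 was at least 30.3-fold higher and the carboxylesterase Ces1f 11.2-fold. Cyp2c55 was the reverse: it read 218 and 96 units in jejunum and 9286 and 1919 units in distal colon and was at least 27.2-fold higher there. Ugt2b5 (729 units at 4 months and 22 units at 28 months in distal colon) and Cyp2c65 (2351 and 228 units) likewise differed widely between the colon arrays, and Cyp2c65 was not called at an adjusted p of 0.057 in limma, while Ugt2b5 was called but not without either jejunum array. The organic anion pump Abcc2 was at least 14.8-fold higher in jejunum. Among bile acid genes, 4 of 8 tested were higher in jejunum (2 without the 4-month jejunum array), and Fabp6, whose main site was the ileum, was higher in distal colon.

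Paneth cell and antimicrobial genes were higher in jejunum in 9 of 13 genes tested, and the other 4 were not called. Itln1, a lectin that binds microbial sugars, read 20186 and 21747 units against 179 and 141 units, and Ang4, a bactericidal ribonuclease, 15956 and 15028 units against 107 and 92 units. The defensin Defa39 was 169-fold higher, and Lyz1, the Paneth cell lysozyme, 2.71-fold higher with 14821 and 15974 units in distal colon. Probe sets of multigene families, such as lysozymes, defensins, Reg lectins, the Cyp3a cytochromes and trypsinogens, may read several members, so values of single members are uncertain. Reg1, a lectin that is also made by the pancreas, read 29954 and 31169 units in jejunum and 44 and 40 units in distal colon. Reg3a, Reg3g and Reg3b varied widely within a tissue. Reg3b read 18206 and 6079 units in jejunum and 10366 and 83 units in distal colon and was not called (adjusted p = 0.22 in limma). Reg3g had the same drop in distal colon, from 1751 to 78 units, and passed at an adjusted p of 0.041 in limma, but not without the 4-month jejunum array (0.16) or without the 28-month one (0.076). Olfm4, a marker of small intestinal crypt base cells, read 9840 and 14352 units in jejunum and 25 and 22 units in distal colon, at least 107-fold apart, while the stem cell receptor Lgr5 read 273 and 296 units against 145 and 242 units and was not called. Of 16 stem cell genes tested, 6.25% were higher in each segment, against 6.19% of all genes tested for jejunum and 9.21% for distal colon. Olfm4 was the 1 higher in jejunum, a count that rose without the 4-month jejunum or the 28-month distal colon array. The growth factor signalling inhibitor Lrig1 was the 1 higher in distal colon, by 2.03-fold, a call lost without the 4-month array of either tissue.

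Hormone genes divided by segment. Of 21 tested, 7 were higher in jejunum and 4 in distal colon. Gip, the incretin of proximal K cells, read 6633 and 5964 units in jejunum and 47 and 59 units in distal colon. Cholecystokinin (Cck) was at least 13.6-fold higher in jejunum, secretin (Sct) 9.62-fold and ghrelin (Ghrl) at least 7.53-fold. On the other side, Insl5, a peptide of colonic L cells, read 49 and 47 units in jejunum and 1998 and 3940 units in distal colon, at least 25.4-fold, and peptide YY (Pyy) was 9.23-fold higher in distal colon. Proglucagon (Gcg) read 994 and 454 units against 1264 and 1685 units and did not pass (adjusted p = 0.056 in limma). The pan-endocrine granule gene Chga read 974 and 1304 units in jejunum and 1105 and 1094 units in distal colon, so the groups overlapped.

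**Figure D3:**
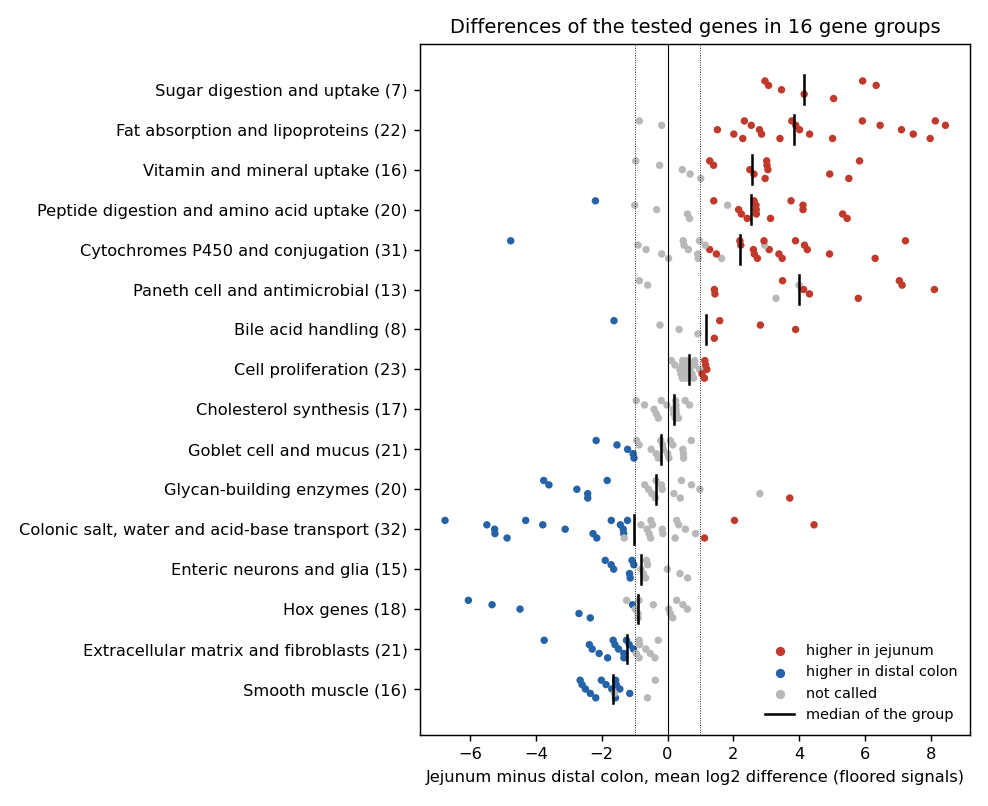
Mean log2 difference, jejunum minus distal colon, on floored signals (x axis) for the tested members of 16 gene groups, with the number tested in brackets; red points were higher in jejunum, blue points higher in distal colon, grey points not called, black bars are group medians and dotted lines mark 2-fold. The sugar and smooth muscle groups lie on opposite sides of 0 with medians of 4.15 and -1.66.

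The Hox genes that were called were all higher in distal colon. Of 33 with a probe set, 18 were above the floor in a tissue. Of these 18, 6 were higher in distal colon and 12 were not called, against 9.21% of all genes tested. Hoxa9, Hoxa10, Hoxd10, Hoxb13 and Hoxd13 entered the test through the distal colon arrays alone, so the share of the 18 depends on the filter. Called or not, 12 of the 18 had a difference below 0 and 6 above it. The 6 were Hoxa7, Hoxa9, Hoxa10, Hoxd10, Hoxb13 and Hoxd13, of which Hoxa7 was below 2-fold without the 28-month distal colon array (-0.82 on the log2 scale). Hoxd13 read 4646 and 4280 units in distal colon and 47 and 46 units in jejunum, at least 40.3-fold, and Hoxa9 read 2319 and 2639 units against 35 and 39 units, at least 22.4-fold. Hoxb13 was at least 66.4-fold higher. Genes with low paralogue numbers, which are expressed towards the front of the body, were not called, among them Hoxb2 at 383 and 462 units in jejunum against 309 and 247 units in distal colon (0.60 on the log2 scale, adjusted p = 0.038 in limma) and Hoxb4 at 151 and 167 units against 154 and 94 units. Hoxa5 depended on the probe set: its brightest read 774 and 834 units in jejunum and 630 and 536 units in distal colon, while probe sets that read a single transcript gave a difference of -1.43. Hoxa11, Hoxb9, Hoxd8 and Hoxd9 were lower in jejunum on both arrays by less than 2-fold on the floored scale. Hoxc8 and Hoxc13 were below the floor on all 4 arrays.

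**Figure D4:**
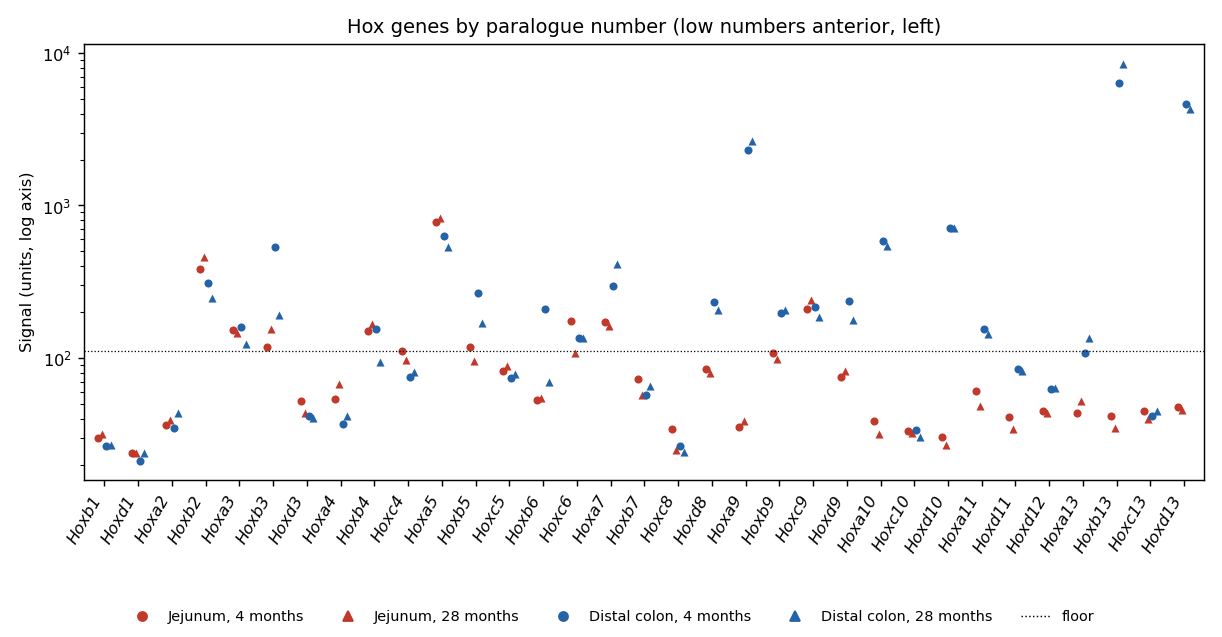
Signal in units on a log axis for the 33 Hox genes with a probe set, ordered by paralogue number from 1 to 13; red is jejunum, blue distal colon, circles are 4 months, triangles 28 months, and the dotted line is the floor. Points of the 2 tissues overlap for Hoxb4, while those of Hoxb2 lie somewhat higher in jejunum. Hoxa9, Hoxa10, Hoxd10, Hoxb13 and Hoxd13 are among those above the floor in distal colon alone.

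Endoderm transcription factors went both ways, with 11 of 30 tested higher in jejunum and 6 higher in distal colon. Pdx1, which patterns pancreas and proximal duodenum, read 1184 and 1863 units in jejunum, 30 and 69 units in distal colon and 41 and 38 units in ileum. Gata4, which maintains jejunal identity, read 924 and 912 units in jejunum, 74 and 75 units in distal colon and 552 and 108 units in ileum. Onecut2 was at least 15.6-fold higher in jejunum, Hnf4g 6.93-fold and Cdx2, the intestinal homeobox factor, 2.47-fold. Foxa1 and Foxa2, which open chromatin in endoderm, were 3.62-fold and 3.69-fold higher in distal colon, and Meis1 was 3.89-fold higher there. Hnf4a, the partner of Hnf4g in the villus epithelium, read 8471 and 7981 units in jejunum and 8843 and 9161 units in distal colon, a difference of -0.13 that was not called (adjusted p = 0.45 in limma) and turned to 0.56 with the median over its probe sets.

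Short letter patterns known for 4 of these factor families were counted in promoter windows from RefSeq (GRCm38.p6), from 250 bases before to 50 bases after a gene's start and on both strands. The patterns were AAAGTCC for HNF4, GTTAAT for an HNF1 half-site, AGATAA for GATA factors and TTTATG for CDX factors; the reverse of the last, CATAAA, resembles a TATA box. Windows were found for 617 of the 770 genes higher in jejunum (801 windows), for 865 of the 1147 higher in distal colon (1163 windows) and for 10022 of the genes tested (12839 windows). AAAGTCC was in 7.62% of jejunum windows, 4.56% of distal colon windows, 4.16% of the windows of genes tested and 4.21% of all 32851 promoter windows. GTTAAT was in 9.36%, 5.85%, 4.63% and 7.10% in the same order, and AGATAA in 10.9%, 6.53%, 6.72% and 11.2%. TTTATG was in 8.99% of jejunum windows and 8.94% of distal colon windows, against 7.13% of the windows of genes tested and 11.9% of all. The shares in jejunum windows thus lay above those of the genes tested for each pattern, and below those of all promoters for AGATAA and TTTATG; these are descriptions of letters, not of binding.

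The 200 bases before the start are printed for genes named here whose windows hold a pattern, 5′ to 3′ on the gene's strand, with the pattern letters in capitals. They show how the patterns lie in 5 genes higher in jejunum, in Saa1 and Hao2, which were higher in distal colon, and in the pancreatic gene Cela2a. Fabp1 is on chr6:71199679-71199878 (plus strand), Cyp3a11 on chr5:145879855-145880054 (minus), Lct on chr1:128328319-128328518 (minus) and Rbp2 on chr9:98490337-98490536 (plus). Lgals2 is on chr15:78855530-78855729 (minus), Saa1 on chr7:46742981-46743180 (minus), Hao2 on chr3:98893231-98893430 (minus) and Cela2a on chr4:141826006-141826205 (minus).
Fabp1: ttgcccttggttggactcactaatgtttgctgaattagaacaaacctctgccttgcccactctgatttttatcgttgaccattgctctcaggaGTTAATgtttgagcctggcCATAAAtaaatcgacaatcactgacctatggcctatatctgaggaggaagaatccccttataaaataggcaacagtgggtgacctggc
Cyp3a11: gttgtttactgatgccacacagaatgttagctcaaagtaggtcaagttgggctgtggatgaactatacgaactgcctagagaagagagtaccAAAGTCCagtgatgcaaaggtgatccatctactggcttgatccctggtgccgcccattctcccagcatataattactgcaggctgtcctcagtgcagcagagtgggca
Lct: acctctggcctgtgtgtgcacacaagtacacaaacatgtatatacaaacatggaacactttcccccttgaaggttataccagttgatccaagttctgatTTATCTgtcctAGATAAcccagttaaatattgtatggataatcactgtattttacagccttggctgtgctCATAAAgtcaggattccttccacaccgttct
Rbp2: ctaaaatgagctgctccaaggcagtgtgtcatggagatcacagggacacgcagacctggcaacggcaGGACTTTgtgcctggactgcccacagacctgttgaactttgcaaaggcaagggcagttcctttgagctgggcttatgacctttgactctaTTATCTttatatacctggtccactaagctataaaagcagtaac
Lgals2: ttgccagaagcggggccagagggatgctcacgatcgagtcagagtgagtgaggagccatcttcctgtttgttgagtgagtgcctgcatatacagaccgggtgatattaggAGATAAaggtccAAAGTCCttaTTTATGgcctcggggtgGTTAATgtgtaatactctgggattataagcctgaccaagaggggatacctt
Saa1: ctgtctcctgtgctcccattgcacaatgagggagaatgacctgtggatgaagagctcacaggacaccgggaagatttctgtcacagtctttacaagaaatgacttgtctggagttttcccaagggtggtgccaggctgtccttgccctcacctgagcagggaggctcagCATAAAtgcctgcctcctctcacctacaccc
Hao2: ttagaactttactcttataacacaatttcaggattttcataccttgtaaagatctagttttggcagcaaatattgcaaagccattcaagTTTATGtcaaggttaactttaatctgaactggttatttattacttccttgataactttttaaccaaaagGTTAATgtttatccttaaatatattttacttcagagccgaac
Cela2a: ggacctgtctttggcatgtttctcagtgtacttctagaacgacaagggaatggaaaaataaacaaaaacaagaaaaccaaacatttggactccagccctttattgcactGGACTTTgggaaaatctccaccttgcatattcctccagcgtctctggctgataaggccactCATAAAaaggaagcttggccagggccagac

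Lgals2 held all 4 patterns within these bases, and Lct held the GATA letters on both strands. In Lct, Saa1 and Cela2a the letters CATAAA began 31, 31 and 30 bases before the start.

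Serum amyloid A1 (Saa1), an acute-phase protein that gut epithelium also makes, had the largest difference towards distal colon among the genes named by the rule. It read 35 and 29 units in jejunum and 17037 and 17389 units in distal colon, at least 156-fold apart with an adjusted p of 3.1e-06, and 8928 and 4454 units in ileum. Sval1, a seminal vesicle antigen-like protein, was at least 128-fold higher in distal colon, the peroxisomal hydroxyacid oxidase Hao2 at least 90.7-fold and 2610528A11Rik, which encodes a ligand of the receptor GPR15, at least 84.7-fold. Lactoperoxidase (Lpo) was at least 56.4-fold and the gasdermin Gsdmc2 at least 55.7-fold higher. In all of these, both distal colon arrays lay far above both jejunum arrays.

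The list of colonic salt, water and acid-base transport genes leaned towards distal colon. Its members were picked as genes of the colon, so the counts say nothing about such transport as a class. Of 32 genes tested, 15 were higher in distal colon and 3 in jejunum, with a median difference of -1.01. Carbonic anhydrase 1 (Car1), which hydrates carbon dioxide in colonic epithelium, read 63 and 53 units in jejunum and 22226 units at 4 months and 6485 units at 28 months in distal colon, at least 108-fold apart. Atp12a, the colonic proton-potassium pump, read 37 and 34 units against 3236 and 5442 units, and Fxyd4, a regulator of the sodium pump that responds to aldosterone, 89 and 80 units against 3991 and 6209 units. Slc5a8, which takes up short-chain fatty acids with sodium, was at least 38.2-fold higher, and Slc16a1, which carries butyrate and lactate, 2.32-fold. The water channel Aqp8 read 77 and 123 units against 2479 and 4737 units. Other members of the aldosterone response were also higher: Hsd11b2, which keeps cortisol-type steroids off the mineralocorticoid receptor, by 13.8-fold, the receptor Nr3c2 by 2.54-fold and the sodium channel subunit Scnn1g by at least 4.44-fold. The subunit Scnn1a (221 and 208 units against 265 and 410 units) did not reach 2-fold. Scnn1b (86 and 77 units against 184 and 204 units) was below the floor in jejunum. Its floored difference, -0.81 on the log2 scale, is therefore a lower bound in size. It was not called, but it was called at -1.25 with the floor at percentile 25.

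The 3 transport genes higher in jejunum were uroguanylin (Guca2b), the sodium-proton exchanger Slc9a3 and the chloride channel Cftr. Guca2b read 21852 and 12275 units in jejunum and 683 and 819 units in distal colon, 21.9-fold, whereas guanylin (Guca2a), which acts on the same receptor, read 9460 and 3774 units against 16193 and 16061 units and was 2.70-fold higher in distal colon. Guca2a lost its call without any of 3 arrays: the adjusted p in limma was 0.11 without the 4-month and 0.10 without the 28-month distal colon array, and the difference was -0.77 on the log2 scale without the 28-month jejunum array. Their receptor Gucy2c read 3918 and 2908 units against 2339 and 2294 units and was not called. The chloride-bicarbonate exchanger Slc26a3 was present in both at 8372 and 7842 units against 11775 and 12160 units, below the 2-fold threshold.

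Of 21 goblet cell genes tested, 5 (23.8%) were higher in distal colon, against 9.21% of all genes tested. The other 16 were not called, and the median difference was -0.20. With the median over probe sets the count of 5 became 3. Muc2, the main secreted mucin, read 11180 and 9729 units in jejunum and 22501 and 16013 units in distal colon, just short of 2-fold, and Zg16, a lectin of mucus, read 36272 and 31708 units against 39352 and 35896 units. Of the secretory lineage factors, Atoh1 was 2.90-fold higher in distal colon and Spdef was not called. Of 20 glycan-building enzymes tested, of mucus and other glycans, 6 (30%) were higher in distal colon and 1 (5%) in jejunum. The shares of all genes tested were 9.21% and 6.19%. B3galt5, which makes type 1 chains, read 251 and 189 units in jejunum and 2737 and 2562 units in distal colon, the sialyltransferase St6galnac6 was 13.6-fold higher there, and Fut2, which adds terminal fucose, 5.38-fold. B4galnt1, of ganglioside synthesis, was 13.1-fold higher in jejunum. B4galnt2, which makes the Sda antigen, read 11821 and 10637 units in jejunum and 5781 units at 4 months and 445 units at 28 months in distal colon and was not called (adjusted p = 0.085 in limma).

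Most junction genes were not called, with 4 of 23 higher in jejunum (fewer without the 4-month jejunum array) and 2 in distal colon. The share higher in distal colon was slightly below the 9.21% of all genes tested. The share higher in jejunum was above the 6.19% of all genes tested, but rested on few genes. Cldn15, which forms sodium pores in small intestine, was 6.93-fold higher in jejunum. Cldn8, a sealing claudin of the distal colon, read 74 and 107 units in jejunum and 3493 and 3417 units in distal colon, at least 31.2-fold. Cldn7 and Cldn3, which are found along the whole gut, differed by less than 2-fold.

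Most listed genes of smooth muscle, matrix and enteric neurons read higher in distal colon. Of 16 smooth muscle genes tested, 13 were higher there and 3 were not called, with a median difference of -1.66, and the summed signal of the list was 36931 and 40257 units in jejunum and 149104 and 103763 units in distal colon. Transgelin (Tagln) read 3856 and 3648 units against 21805 and 16685 units, and calponin (Cnn1) was 5.63-fold higher. Extracellular matrix genes were higher in distal colon in 13 of 21, among them periostin (Postn), at 929 and 524 units against 12178 and 7220 units, 13.4-fold, and decorin (Dcn), 3.14-fold. Enteric neuron and glia genes were higher in 7 of 15, such as the neurofilament Nefl at least 3.71-fold and Snap25 3.28-fold. Without these 3 lists, 1114 genes were higher in distal colon in place of 1147. The part of the larger wall signal in the other differences was not tested.

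Immune genes differed by lineage, with some counts near the shares of all genes tested (6.19% higher in jejunum, 9.21% higher in distal colon). Cytotoxic lymphocyte genes were higher in jejunum in 4 of 14 genes tested, and the other 10 were not called. Granzyme A (Gzma) read 2828 and 3173 units in jejunum and 94 and 66 units in distal colon, at least 27.1-fold, and granzyme B (Gzmb) was at least 7.01-fold higher, while the T cell receptor chain Cd3e read 326 and 334 units against 177 and 264 units and was not called. Ccl25, an epithelial chemokine that draws lymphocytes to the small intestine, read 12791 and 11267 units against 126 and 156 units, 85.5-fold, and its receptor Ccr9 was at least 2.68-fold higher, though below 2-fold without the 28-month jejunum array (0.91 on the log2 scale). Mast cell and eosinophil genes went both ways, with 2 of 6 tested higher in jejunum and 2 in distal colon (1 without the 4-month jejunum or the 28-month distal colon array). The mucosal mast cell proteases Mcpt1 and Mcpt2 were at least 3.07-fold and 3.90-fold higher in jejunum, whereas the chymase Cma1 was at least 2.31-fold and Kit, a receptor that interstitial cells of the gut wall also carry, 3.13-fold higher in distal colon. B cell genes were higher in distal colon in 4 of 10, a count that was 8 without the 4-month and 2 without the 28-month distal colon array. Ms4a1, which encodes CD20, read 67 and 112 units in jejunum and 343 and 978 units in distal colon, and the follicle chemokine Cxcl13 was 7.36-fold higher at 503 and 787 units against 2685 and 7984 units. Of 16 macrophage and dendritic cell genes tested, 1 (6.25%) was higher in jejunum and 3 (18.8%) in distal colon, with a median difference of -0.03. Those higher in distal colon included Cd163 by at least 5.26-fold and Cd14 by 4.51-fold.

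Of 17 cholesterol synthesis genes tested, 0 were called in limma, although 4 had an unadjusted p under 0.05 and 2 of these an adjusted p under 0.05 with a difference below 2-fold. The list's median difference was 0.19. All 23 proliferation genes tested had a difference above 0, and 5 of 23 were called, against 6.19% of all genes (10 without the 4-month and 2 without the 28-month jejunum array). Birc5, a mitotic regulator, was 2.29-fold higher in jejunum, and Mki67 was not called at 1817 and 2665 units against 1642 and 1361 units. In fatty acid oxidation, 4 of 16 were higher in jejunum, led by the peroxisomal enzyme Ehhadh at 5.18-fold, and Oxct1, which burns ketone bodies, read 5410 and 5384 units against 8300 and 9032 units, below 2-fold.

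Pancreatic enzyme genes formed a separate set within the jejunum differences. Of 22 pancreatic acinar genes tested, 18 were higher in jejunum and 1 in distal colon, with a median difference of 4.76. The elastase Cela2a read 10404 and 9811 units in jejunum, 43 and 61 units in distal colon and 58 and 62 units in ileum. Trypsinogen 2 (Prss2) read 9454 and 9373 units in jejunum and 124 and 105 units in distal colon, the carboxypeptidase Cpa1 6943 and 7575 units against 74 and 69 units, and the chymotrypsinogen Ctrb1 8229 and 8778 units against 123 and 142 units. In ileum Prss2 read 143 and 102 units, Cpa1 82 and 71 units and Ctrb1 177 and 166 units. These 4 genes were thus near their distal colon level in ileum, and in jejunum their levels at the 2 ages were close. Other members of the set were also read in ileum: colipase (Clps) read 4268 and 2418 units in ileum and the lipase-related protein Pnliprp2 3583 and 3712 units and Spink1, a trypsin inhibitor, 20361 and 14479 units there.

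Other members of the set did not share the pattern. Cela1 read 10357 and 9840 units in jejunum and 13670 and 15469 units in distal colon, Spink1 17600 and 8983 units against 14020 and 15385 units, and neither was called. Syncollin (Sycn), a zymogen granule protein, read 3302 and 5388 units in jejunum and 27058 and 32982 units in distal colon, 7.08-fold higher there. With all 10 arrays in the fit, where the spleen arrays differ in these genes, Sycn and Clps were not called (adjusted p = 0.11 and 0.079 in limma). The acinar transcription factor Ptf1a was below the floor on all 4 arrays, and its partner Rbpjl read 136 and 127 units in jejunum and 107 and 108 units in distal colon. Of 4 islet genes tested, Pdx1 was higher in jejunum by at least 13.4-fold and pancreatic polypeptide (Ppy) was higher in distal colon, at 74 and 67 units against 295 and 852 units, at least 4.53-fold. Insulin (Ins2) read 203 and 151 units against 179 and 156 units, and it and Iapp were not called. The summed signal of the 26 acinar genes with a probe set was 117440 and 111107 units in jejunum, 32430 and 25312 units in ileum, 56936 and 66444 units in distal colon, and 67015 units at 4 months but 3105 units at 28 months in spleen. Without the acinar list, 752 genes were higher in jejunum in place of 770. Whether pancreatic tissue was taken with the jejunum was not tested.

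Genes known from stomach and Brunner's glands stood in jejunum beside the pancreatic ones. Gkn3, a gastrokine, read 24333 and 22819 units in jejunum, 118 and 128 units in distal colon and 161 and 90 units in ileum, 191-fold higher in jejunum than in distal colon with an adjusted p of 3.4e-06. Tff2, the trefoil peptide of mucous neck, antral and Brunner's glands, read 35584 and 33202 units against 156 and 212 units, and Gkn2 19260 and 13065 units against 111 and 104 units. These 3 genes were named by the rule, and other genes of the kind were then looked up after their values were seen, so their number is no evidence. Among those, Gkn1 read 9141 and 6273 units, Tff1 13688 and 10842 units, Muc5ac, the mucin of the stomach surface, 714 and 490 units, gastrin (Gast) 656 and 513 units and the antral homeobox gene Nkx6-3 807 and 1032 units in jejunum. In distal colon Tff1 read 813 and 821 units, and Gkn1, Muc5ac, Gast and Nkx6-3 were below the floor. Of genes of acid-secreting and chief cells, the proton pump subunit Atp4a (83 and 97 units) and gastric lipase (Lipf, 35 and 28 units) were below the floor in jejunum. Pepsinogen C (Pgc) read 176 and 167 units there. It differed by 0.63 on the log2 scale (adjusted p = 0.0051 in limma), below 2-fold, but was called at 1.18 with the floor at percentile 25. At that floor 2 genes of this list were higher in jejunum, in place of 0.

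Enteropeptidase (Tmprss15), the brush-border protease of the duodenum that activates trypsinogen, read 775 and 663 units in jejunum, 37 and 33 units in ileum and 35 and 37 units in distal colon. Pdx1, Cybrd1 and S100g had the same order, but these 4 genes were put together after their values were seen. Gip and Gata4, also known for the proximal small intestine, read 6588 and 552 units in ileum at 4 months. In ileum of the older mice both read lower, as given above, and Gata4 lay below the floor. Both were then far below the jejunum array of that age, so the order of these genes differed between the ages. Leaving out the pancreatic list and both stomach lists gave 738 genes higher in jejunum in place of 770. The labels do not say from where along the intestine the pieces were cut, and whether they held duodenum or pylorus was not tested.

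**Figure D5:**
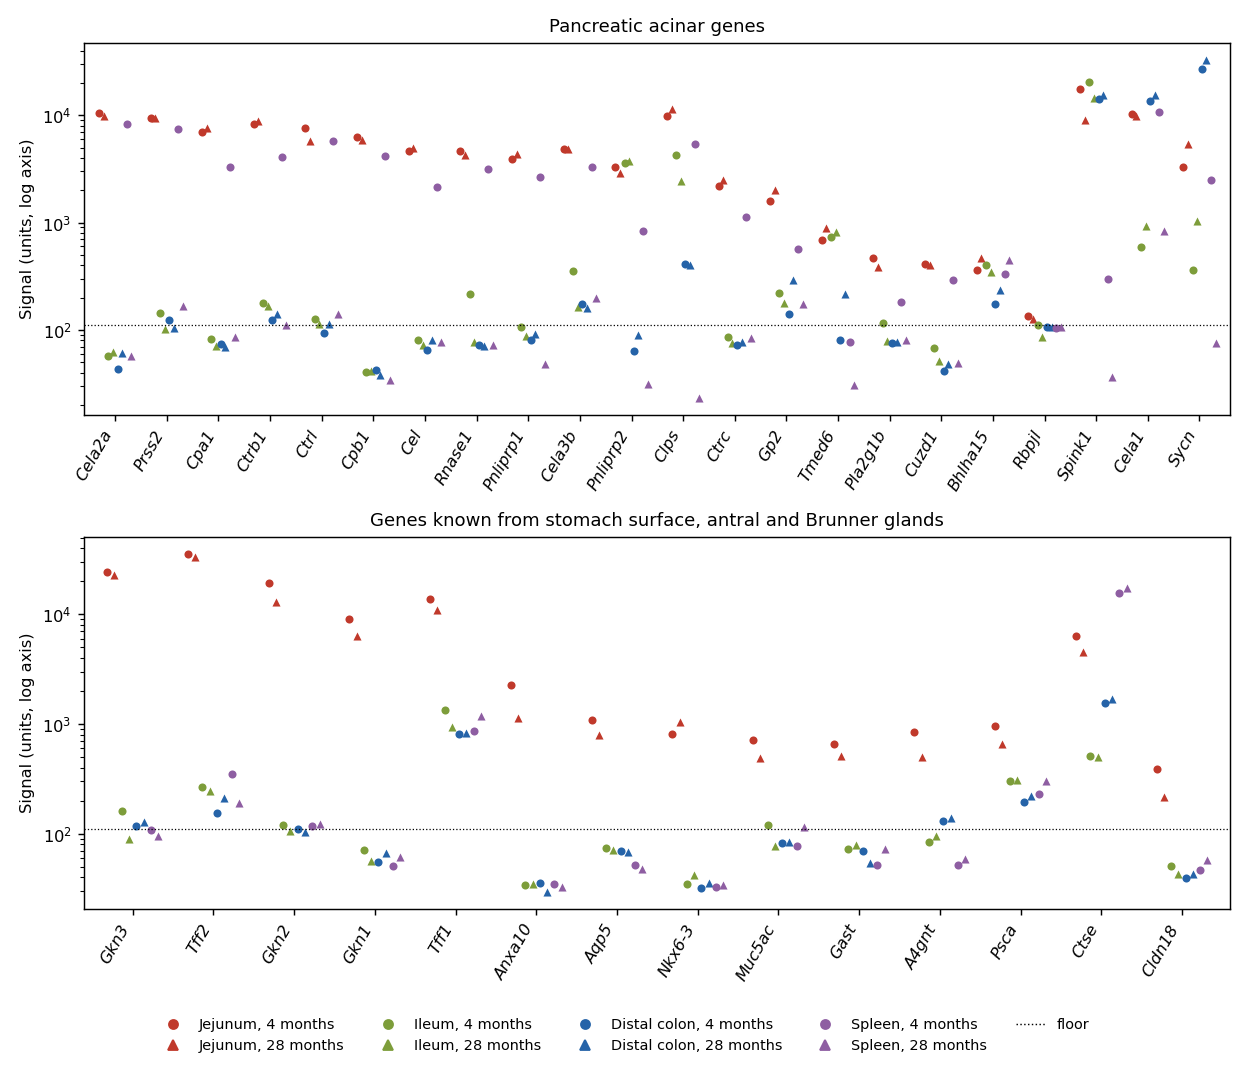
Signal in units on a log axis for the tested pancreatic acinar genes (top) and for genes known from stomach and Brunner's glands (bottom), each ordered by its difference between jejunum and distal colon; red is jejunum, green ileum, blue distal colon and purple spleen, circles are 4 months, triangles 28 months, and the dotted line is the floor. Most pancreatic genes are high in jejunum at both ages and in spleen at 4 months alone, while the stomach genes other than Ctse are highest in jejunum.

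The ileum lay nearer to jejunum than to distal colon for most called genes, and less so at 28 months. On a scale where 0 is the distal colon and 1 the jejunum of the same age, the median ileal position of the genes higher in jejunum was 0.957 at 4 months and 0.744 at 28 months, and of the genes higher in distal colon 0.923 and 0.653. The ileum was nearer jejunum for 87.0% of the genes higher in jejunum at 4 months and 64.7% at 28 months, and for 95.5% and 69.1% of the genes higher in distal colon. Fabp1 read 31032 units in ileum at 4 months and 1017 units at 28 months, Lct 14054 and 92 units, and Gip 6588 and 229 units. The 28-month ileum array therefore stood closer to distal colon than the 4-month one did, and why was not tested.

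Most called differences between jejunum and distal colon changed by less than 2-fold between the ages. Of 1960 genes with a 2-fold mean difference, 1958 had the same sign at both ages, and 0 genes differed 2-fold in opposite directions at the 2 ages. A 2-fold mean difference leaves little room for opposite signs, so the count of 1958 does not measure how alike the ages were. The ages also served as the replicates of the fit, so calls favour genes that changed little between them. The shares of called genes that changed by more or less than 2-fold therefore do not measure it either. The difference changed by 2-fold or more between the ages for 89 of the 770 genes higher in jejunum, of which 70 differed more at 4 months, and for 48 of the 1147 genes higher in distal colon, of which 23 differed more at 28 months. Dnase1, a nuclease of the gut lumen, read 9140 units at 4 months and 961 units at 28 months in jejunum, with distal colon below the floor. Intestinal alkaline phosphatase (Alpi) was steady in jejunum at 26198 and 26213 units but read 972 units at 4 months and 82 units at 28 months in distal colon. Slc5a4a and Slc5a4b, relatives of the glucose cotransporter, read 908 and 1316 units at 4 months and 161 and 157 units at 28 months in jejunum, and neither kept its call without the 4-month jejunum array or without either distal colon array. Among genes higher in distal colon, Ms4a1 read higher at 28 months, and 1810065E05Rik (12325 and 1000 units) and Car1 read higher at 4 months. With 1 array per age, none of these changes between ages could be tested.

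Few 2-fold differences failed the test. Of the 1958 with the same sign at both ages, 41 had an adjusted p of 0.05 or more in limma, among them Reg3b, B4galnt2 and Cyp2c65, whose distal colon arrays differed widely, and the dipeptidase Naaladl1, at 3506 units at 4 months and 425 units at 28 months in jejunum. With age as a replicate block these 4 genes passed in limma, at an adjusted p of 0.010 for Reg3b, 0.0040 for B4galnt2, 0.0022 for Cyp2c65 and 0.0083 for Naaladl1, and so did Gcg at 0.012. Where a gene had several measured probe sets, all lay on the same side for 277 of 286 genes higher in jejunum and 455 of 506 higher in distal colon. Of the genes higher in jejunum, 22.6% read as high or higher in liver, and of the genes higher in distal colon 16.8%, against 32.1% of all genes tested measured the same way. In spleen these shares were 7.79%, 18.6% and 38.5%. Each share compares the organ with the brighter segment, and called genes were chosen for a bright segment. Lower shares among them follow in part from that choice and are no measure of gut specificity.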

How the data were processed

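RNA of jejunum, ileum, distal colon, liver and spleen was read on Affymetrix Mouse Genome 430 2.0 arrays, 1 per tissue and age. The authors deposited log2 signals, 1 per probe set, between 2.71 and 14.4 on the 4 arrays compared. The submitters' processing notes name MAS5 and affy, with no version or role, and the base of 2 was read from the range of the values. With 2 arrays per tissue, the number of arrays limits the precision.

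Signals were taken out of the log and scaled to a mean of 500 units after trimming 2% at each end (factors 2.42 to 2.57). The floor was the median of all signals, 111 units. Of 45101 probe sets, 34958 named 1 gene, 932 several and 9211 none in the annotation used. For a gene with several probe sets, the one brightest on average (log2) over the 4 arrays was used, and the gene was tested if both arrays of a tissue lay above the floor. Jejunum minus distal colon was fitted with limma 3.58.1 in R 4.3.3 (lmFit, eBayes, no covariate) on unfloored signals, so that the adjusted p rests on these and the fold on floored ones. The residual degrees of freedom were 2 and the prior 4.02. The fit was tested on simulated data.

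Genes were named by rule: the 15 largest called differences per direction with at least 2 floors in the brighter tissue and probe sets of one direction, up to 8 members per gene list, all Hox and pancreatic genes, and up to 10 genes per direction whose difference changed most with age. Where list members beyond these are named, they were chosen after their values were seen. Members and lists were chosen with earlier results of these data known. The 2 stomach lists and the counts without them or without the wall lists were added after seeing the values. Age pairs the arrays, since the tissues of an age came from the same mice, and deviations of same-age arrays from their tissue means correlated at 0.17 over genes. Promoter windows are from RefSeq GRCm38.p6.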

Additional observations from a re-analysis of the deposited data

How the results depend on the processing

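Of 147 called genes named, 99 kept their call under all 20 alternatives that gave a value. With a 1.5-fold threshold, 1441 genes were higher in jejunum and 2344 in distal colon, and with a 4-fold threshold 308 and 244. A floor at percentile 75 left 518 higher in jejunum and 568 in distal colon, where fewer genes are tested and folds of dim genes shrink. Taking the median over probe sets left 704 and 753, and the cause was not tested. Leaving out 1 array gave 715 to 854 genes higher in jejunum and 1079 to 1254 in distal colon. With age as a replicate block, the counts were 794 and 1164, and the block ended no call of a named gene but added Gcg, Reg3b, B4galnt2, Cyp2c65 and Naaladl1. Other scalings, filters and fits gave 670 to 829 and 949 to 1304. Among genes that were not called, Hnf4a turned from -0.13 to 0.56 with the median over probe sets and to 0.16 without probe sets that can read several transcripts, and Hoxa5 from 0.47 to -0.48 and -1.43. Ighm, called at -1.79, turned to 1.93 without the latter probe sets, and Lrig1, called at -1.02, to 0.11. Leaving out 1 array moved Ins2 between -0.14 and 0.29, Chga between -0.17 and 0.25, Fabp4 between -0.36 and 0.36 and Spink1 between -0.71 and 0.26. Of called genes named, 14 lost the call at the higher floor, among them Gata4, Ghrl, Gzmb, Muc5ac, Gast, Nkx6-3 and Tmprss15, and 7 with the median over probe sets (Cftr, Ckm, Hoxa10, Ighm, Lrig1, Slc16a1 and Snap25). The enteric neuron count of 7 became 3 with the median over probe sets and 0 with the floor at percentile 75. At that floor Hox genes higher in distal colon went from 6 to 3 (10 with the floor at percentile 25), stomach genes from 14 to 7, B cell genes from 4 to 0 and hormone genes from 7 to 4 in jejunum and from 4 to 2 in distal colon. Counts of 1 gene became 2 without 1 array for peptide genes in distal colon (either 4-month array), cytochrome and conjugation genes in distal colon (28-month distal colon array), glycan genes in jejunum (either distal colon or the 28-month jejunum array), endothelial genes in distal colon and hepatocyte genes in jejunum (28-month jejunum array for both). Each tissue had 2 pools of different age, signals below the floor have no order, and differences under 2-fold were not called.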

Other observations

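Further gene groups of the deposited arrays showed smaller or mixed differences. Of 7 tuft cell genes tested, 2 were higher in jejunum (Rgs13 and Avil) and 1 in distal colon. Rgs13, a signalling regulator of tuft cells, read 380 and 452 units in jejunum and 52 and 62 units in distal colon, at least 3.74-fold higher in jejunum. Dclk1, a kinase used as a marker of tuft cells, read 57 and 67 units against 352 and 432 units, at least 3.52-fold higher in distal colon. Both adjusted p-values in limma were 1.7e-04 or below, so that genes of 1 list went in opposite directions, although the median over the probe sets of Dclk1 did not pass the floor and was not tested. Plasma cell genes were higher in jejunum in 3 of 13 (1 without the 28-month jejunum array) and in distal colon in 1, Ighm, whose probe sets disagreed in direction and which was not called without either jejunum array. By contrast, the immunoglobulin joining chain gene Jchain, at 19403 and 26102 units against 12008 and 14508 units, did not reach 2-fold. Of 10 endothelial genes, Lyve1, of lymphatic vessels, was 2.54-fold higher in distal colon and the other 9 were not called. That is 10%, near the 9.21% of all genes tested.

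Carbamoyl phosphate synthetase 1 (Cps1), the first enzyme of urea synthesis and also known in small intestine, read 11145 and 15262 units in jejunum, 9066 and 7347 units in ileum and 438 and 419 units in distal colon, 30.4-fold higher in jejunum. It was the only one of 6 hepatocyte genes tested that was called. Of 4 skeletal muscle genes tested, Acta1 and the creatine kinase Ckm were 2.26-fold and 2.67-fold higher in distal colon (Acta1 at -0.99 on the log2 scale without the 4-month jejunum array), while the myosins Myh1, Myh2 and Myh4 were below the floor on all 4 arrays, as were the seminal vesicle genes Svs2 and Svs4. Cidec, a lipid droplet protein listed under adipocytes, read 1283 and 660 units in jejunum and 66 and 50 units in distal colon, whereas the adipocyte gene Fabp4 read 1775 and 2912 units against 2063 and 2507 units.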
